A study of Mus musculus with 10 samples.

Results

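The 10 genes Cck, Sct, Gcg, Gip, Sst, Nts, Ghrl, Tac1, Pyy and Iapp encode peptide hormones made by enteroendocrine cells of the gut. They were chosen by name, and all 10 were found among the 35006 gene names of the count files. Their reads were compared over 5 sorted populations of mouse small-intestinal crypt cells, P1 to P5, to see which hormones were present in which gate. Each population was represented by 2 libraries, so that 10 libraries were used. All mice were C57BL6/J and carried the OSCAR reporter, a knock-in at Rosa26 in which the EF1a promoter drives mCherry and VeN90 in all tissues, after the stop cassette was removed with germline Vasa-Cre. VeN90 is a Venus protein that dims when CDK9, a kinase of RNA polymerase II, phosphorylates it, so a high OSCAR ratio of VeN90 to mCherry stands for low CDK9 activity. By their labels, P1 was OSCARlow EF1alow, P2 was OSCARhigh EF1alow, P3 was OSCARlow EF1ahigh, P4 was OSCARmed EF1alow and P5 was OSCARmed EF1ahigh. All were live EpCAM+ cells, 10000 sorted per population, with no other treatment, and age and sex were not given.

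Enteroendocrine cells are rare epithelial cells that sense the contents of the gut and release peptides from dense-core granules. They arise from crypt progenitors that switch on the transcription factor Neurog3, and then Neurod1 and other factors, before the hormone genes are expressed. Granins such as Chgb fill the granules, and prohormone convertases such as Pcsk1 cut the precursors into the active peptides. Single cells often express several hormones, and the mixture changes along the gut and along the crypt-villus axis.

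The promoters of 4 members are shown because the results turn on these genes: Gip and Sst gave the most hormone reads per length in P2, and Gcg and Tac1 were the members that lay closest in P2 and P4. Each sequence is the 250 bases before the RefSeq start site (build GRCm38.p6), written 5′ to 3′ on the strand of the gene. Capitals mark 3 motifs, the E-box CANNTG that Neurog3 and Neurod1 can bind, the cyclic AMP response element TGACGTCA, and the TATA box TATAAA.
Gip (chr11:96024295-96024544, plus strand): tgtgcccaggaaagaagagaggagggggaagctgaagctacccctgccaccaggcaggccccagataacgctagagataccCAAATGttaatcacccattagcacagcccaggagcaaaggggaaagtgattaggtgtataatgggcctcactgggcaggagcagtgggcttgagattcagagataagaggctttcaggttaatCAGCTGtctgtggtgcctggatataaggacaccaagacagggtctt
Sst (chr16:23890845-23891094, minus strand): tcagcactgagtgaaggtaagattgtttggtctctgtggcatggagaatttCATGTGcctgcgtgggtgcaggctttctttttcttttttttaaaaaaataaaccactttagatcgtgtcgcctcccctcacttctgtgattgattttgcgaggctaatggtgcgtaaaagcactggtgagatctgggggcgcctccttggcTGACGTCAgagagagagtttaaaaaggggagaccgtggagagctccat
Gcg (chr2:62483654-62483903, minus strand): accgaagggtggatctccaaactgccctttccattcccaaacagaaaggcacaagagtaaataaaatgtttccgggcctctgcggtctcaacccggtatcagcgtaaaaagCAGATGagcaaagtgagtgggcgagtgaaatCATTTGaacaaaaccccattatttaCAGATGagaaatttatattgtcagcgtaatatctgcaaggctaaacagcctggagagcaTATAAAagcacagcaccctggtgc
Tac1 (chr6:7554811-7555060, plus strand): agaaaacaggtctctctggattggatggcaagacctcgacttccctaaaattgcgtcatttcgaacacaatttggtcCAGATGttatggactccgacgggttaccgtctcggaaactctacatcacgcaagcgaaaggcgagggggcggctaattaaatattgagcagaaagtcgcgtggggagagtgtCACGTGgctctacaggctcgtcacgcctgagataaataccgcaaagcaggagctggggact
The E-box and the response element were searched on both strands, whose letters read the same, and the TATA box on the gene's strand only. All 10 members held an E-box in at least 1 start-site window, but so did 66.2% of the 32851 promoter windows of the same length. The response element was found in Sst alone among the members, and in 1.55% of all windows. The TATA box was found in Sct and Gcg, and in 7.59% of all windows. These matches describe letters, not sites of binding.

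The libraries held between 3857612 and 6485823 reads on genes. The 2 libraries labelled P3 stood apart, with 59.2% and 36.1% of their reads on mitochondrial genes against 1.04 to 5.19% elsewhere, and with only 249 and 75 reads on the 10 hormones. The enteroendocrine markers Chga, Chgb, Neurod1, Neurog3, Pcsk1, Scg2, Scg3, Isl1, Rfx6 and Insm1 summed to 2706 and 6564 CPM (the count of a gene scaled to the library size) in the libraries labelled P2 and to 21.9 to 440 CPM in the other 8. The study describes the P3 gate as its secretory one, whereas secretory markers lay in the libraries labelled P2, so the labels of P2 and P3 stand against that description. Whether the names of these gates were exchanged was not settled by the sources used here, and if they were, the values given for P2 would belong to the OSCARlow EF1ahigh gate and those for P3 to the OSCARhigh EF1alow gate. No library was renamed, and every population below is named by its label. The epithelial markers Epcam, Cdh1, Krt8, Krt18 and Vil1 together summed to 3764 to 9961 CPM in the 10 libraries. In sorted pools such as these, fewer cells of a type and less RNA per cell cannot be told apart.

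The hormone genes were highest in P2. Together they took 0.223% (95% Wilson interval 0.218 to 0.227%) and 0.618% (0.612 to 0.624%) of the reads in the 2 P2 libraries, and between 0.0016 and 0.0586% in the other 8. The intervals cover counting error only. On the CPM scale, corrected for composition by TMM, the sum was 3237 and 8742 in P2, 388 and 205 in P4, 212 and 209 in P1, 93.5 and 202 in P5, and 132 and 16.6 in P3. Both P2 libraries therefore lay above all others, while the ranges of P1, P4 and P5 met or lay close together.

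All 10 hormones passed the filter on low counts and were tested. A call is an adjusted p under 0.01, where p came from the quasi-likelihood test of edgeR and was adjusted by Benjamini-Hochberg across all 13708 genes that passed the filter. Across the 5 populations, 8 of the 10 were called, against 36.3% of all genes. Gip (adjusted p = 0.0124) and Gcg (adjusted p = 0.0159), the members not called, were among those with the widest gaps between replicates. All 10 were called higher in P2 than in the average of P1, P3, P4 and P5, where 16.3% of all genes were called higher and 10.7% lower. In this comparison the log2 fold change is taken against the mean of the 4 log2 levels, which a population with few reads pulls down, so the plain ratio of mean CPM is given for each member. For Tac1 and Iapp, with no read in P3, the ratio is given without the log2 fold change. The median log2 fold change of the members was 5.25, against a median of 0.00 over all genes, and the median was 5.30 from ratios of pooled CPM with groups at 0 reads set to their counting limit. For 8 members, all but Gcg and Nts, both P2 libraries lay above every other library, which held for 20.2% of all genes. The count rested in part on P2 replicate 2, since 5 members remained called without that library, namely Cck, Sct, Sst, Ghrl and Iapp, while the genes called in either direction fell from 3707 to 1867.

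**Figure D1:**
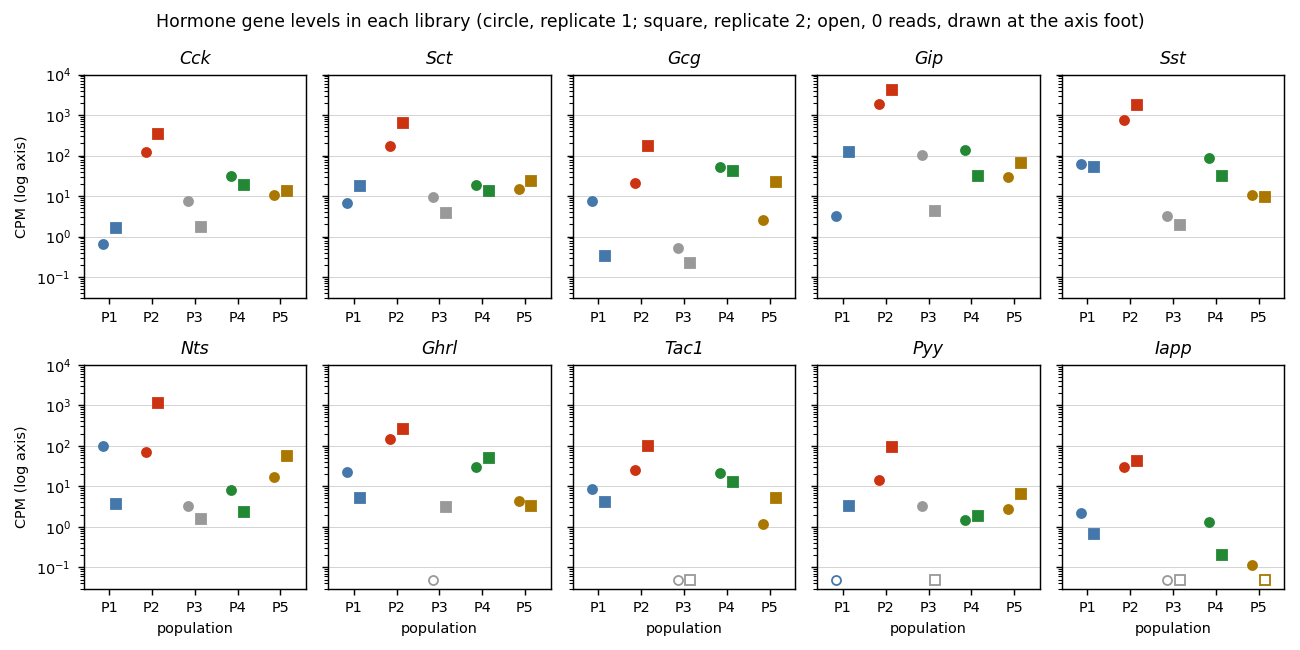
Level of each hormone gene in each library, in CPM on a log axis, by population. Circles are replicate 1 and squares replicate 2, and open marks at the foot of the axis are libraries with 0 reads. Both P2 libraries sit above the other 8 for all members but Gcg and Nts.

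Gip, Cck and Sct belong to the upper small intestine. Gip (chr11:95885859-95892145 in NCBIM37, plus strand) encodes the incretin that raises insulin release after a meal. It had 1897 and 4153 CPM in P2, 136 and 31.5 CPM in P4, 3.21 and 120.4 CPM in P1, 105 and 4.21 CPM in P3, and 29.9 and 64.0 CPM in P5, each pair as replicate 1 and replicate 2. Both P2 libraries were more than an order of magnitude above the rest, and the other 4 populations overlapped one another. Its mean CPM in P2 was 49.0 times that of the others (log2 5.66 ± 1.01 SE, adjusted p = 0.00192). In P1 and P3 the replicates differed 37.5-fold and 24.9-fold, so that no order of these 4 populations could be given for Gip. Without P2 replicate 2 the call was lost (log2 4.97, adjusted p = 0.0168).

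Cck (chr9:121398943-121404807, minus strand), which encodes the hormone of gallbladder contraction and pancreatic enzyme release, had 122 and 339 CPM in P2. It had 31.6 and 18.8 CPM in P4, 10.5 and 13.2 CPM in P5, 7.41 and 1.77 CPM in P3, and 0.676 and 1.67 CPM in P1. The order of the means was P2, P4, P5, P3 and P1, with no overlap between neighbours. The mean CPM in P2 was 21.5 times that of the others (log2 5.25 ± 0.40, adjusted p = 2.13e-05). Cck was the member with the clearest steps among the remaining gates. It was lower in P1 than in P4 by edgeR (log2 -4.40 ± 0.74, adjusted p = 0.00232) and higher in P5 than in P1 (log2 3.31 ± 0.75, adjusted p = 0.009). P4 and P5 did not pass the test (log2 -1.08 ± 0.56 for P5 against P4, adjusted p = 1), and neither did P5 and P3 (log2 1.63 ± 0.72, adjusted p = 0.431).

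Sct (chr7:148464230-148465032, minus strand) encodes secretin, which drives bicarbonate release from the pancreas. It had 169 and 634 CPM in P2, against 19.1 and 13.6 CPM in P4, 14.9 and 23.1 CPM in P5, 6.59 and 17.5 CPM in P1, and 9.52 and 3.76 CPM in P3. P4, P5 and P1 overlapped, and P3 overlapped P1 only. The P2 mean stood at 29.7 times that of the others (log2 5.03 ± 0.43, adjusted p = 3.83e-05). None of the 6 comparisons among P1, P3, P4 and P5 passed for Sct, with the lowest unadjusted p for P5 against P3 (log2 1.66 ± 0.76, adjusted p = 0.441).

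Sst (chr16:23889667-23890930, minus strand) encodes somatostatin, the D-cell peptide that restrains the release of other hormones. It had 742 and 1799 CPM in P2, 84.7 and 31.9 CPM in P4, 62.8 and 52.0 CPM in P1, 10.4 and 9.72 CPM in P5, and 3.17 and 1.99 CPM in P3. P1 lay within the range of P4, and P5 and P3 each lay apart from all others. The P2 mean was 39.6 times that of the others on the CPM scale (log2 6.23 ± 0.35, adjusted p = 7.39e-06), the lowest adjusted p of the 10 in that comparison. Sst was also lower than P1 in P5 (log2 -2.51 ± 0.53, adjusted p = 0.00671) and in P3 (log2 -4.56 ± 0.66, adjusted p = 0.002), whereas P1 against P4 gave -0.02 ± 0.49 on the log2 scale (adjusted p = 0.98). The step from P4 down to P5 had a similar size (log2 -2.53 ± 0.53) but an adjusted p of 0.568 in edgeR, where 0% of all genes were called between these gates.

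Gcg, Nts and Pyy are peptides found mainly toward the lower small intestine. Gcg (chr2:62312587-62321707, minus strand), whose proglucagon is cut into the GLP-1 and GLP-2 of L cells, had 21.0 and 175 CPM in P2. It had 53.4 and 40.8 CPM in P4, 2.63 and 22.5 CPM in P5, 7.77 and 0.334 CPM in P1, and 0.529 and 0.221 CPM in P3, each P3 library holding a single read. P4 thus lay between the P2 libraries, and Gcg was the member with the smallest difference between P2 and P4 (log2 1.07 ± 1.10, adjusted p = 0.514). Mean CPM in P2 was 6.13 times that of the other 4 populations (log2 4.21 ± 0.89, adjusted p = 0.00466). That call needed P3, since P2 against the average of P1, P4 and P5 gave a log2 of 2.88 ± 0.84 (adjusted p = 0.0235), and it was lost without P2 replicate 2 (log2 1.96, adjusted p = 0.236), P3 replicate 2 (adjusted p = 0.0141) or P4 replicate 2 (adjusted p = 0.0106). The other 9 members stayed called without P3, where 14.7% of all genes were called higher.

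Nts (chr10:101944394-101953052, minus strand) encodes neurotensin. It had 68.4 and 1151 CPM in P2, 98.2 and 3.67 CPM in P1, 16.8 and 54.9 CPM in P5, 8.20 and 2.28 CPM in P4, and 3.17 and 1.55 CPM in P3. The P1 replicate 1 library was above the P2 replicate 1 library, and the replicates differed 16.8-fold in P2 and 26.7-fold in P1. The P2 mean was 25.8 times that of the others (log2 5.68 ± 0.98, adjusted p = 0.00158), with the call lost without P2 replicate 2 (log2 2.51, adjusted p = 0.124). None of the 10 comparisons between 2 populations was called for Nts.

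Pyy (chr11:101967990-101969146, minus strand) encodes peptide YY, which slows the gut after a meal. It had 14.3 and 91.9 CPM in P2, 2.74 and 6.34 CPM in P5, 1.47 and 1.88 CPM in P4, 0 and 3.34 CPM in P1, and 3.17 and 0 CPM in P3. P5 was above P4, and P1 and P3 overlapped both. The P2 mean of Pyy was 22.4 times that of the others (log2 4.78 ± 0.80, adjusted p = 0.00141), a call that DESeq2 did not make (adjusted p = 0.0122) and that was lost without P2 replicate 2 (log2 2.82, adjusted p = 0.117).

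Ghrl (chr6:113666113-113669874, minus strand) encodes ghrelin, the appetite hormone. It had 149 and 261 CPM in P2, 30.7 and 51.2 CPM in P4, 22.1 and 5.0 CPM in P1, 4.34 and 3.27 CPM in P5, and 0 and 3.10 CPM in P3. The populations were ordered P2, P4, P1, P5 and P3 with no overlap between neighbours. Mean CPM in P2 was 13.7 times that of the others (log2 4.65 ± 0.45, adjusted p = 7.17e-05) and 4.99-fold above P4, which was not called (log2 2.32 ± 0.64, adjusted p = 0.0246). P4 stood 10.7-fold above P5 (log2 -3.43 ± 0.72 for P5 against P4, adjusted p = 0.568 by edgeR), and DESeq2 called this step.

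Tac1 (chr6:7505071-7512973, plus strand) encodes substance P and neurokinin A and is typical of serotonin-making enterochromaffin cells. It had 25.5 and 96.1 CPM in P2, 21.1 and 12.8 CPM in P4, 8.45 and 4.00 CPM in P1, and 1.14 and 5.07 CPM in P5, and no read in either P3 library. P2 and P4 did not overlap but were close, at 3.62-fold (log2 1.85 ± 0.74, adjusted p = 0.0971). With a limit of 3 reads over both P3 libraries (0.468 CPM), Tac1 was at least 142-fold higher in P2, at least 35.2-fold higher in P4, at least 13.3-fold higher in P1 and at least 6.80-fold higher in P5. The P2 mean was 9.27 times that of the others with P3 included (adjusted p = 0.000545), and 6.95 times that of P1, P4 and P5 (log2 3.14 ± 0.55, adjusted p = 0.00273).

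Iapp (chr6:142246943-142252481, plus strand) encodes amylin, best known from pancreatic beta cells. It had 29.2 and 42.0 CPM in P2, 2.20 and 0.667 CPM in P1, 1.35 and 0.198 CPM in P4, and no read in P3, and a single read was found in the P5 libraries together. It was 24.6-fold higher in P2 than in P1 (log2 4.62 ± 0.81, adjusted p = 0.00257), 47.0-fold higher than in P4 (log2 5.55 ± 0.85, adjusted p = 0.00265) and at least 78.2-fold higher than in P3. Mean CPM of Iapp in P2 was 63.0 times that of the others (adjusted p = 6.60e-05). The beta-cell genes Ins1 and Ins2 had no read in any library. Slco1a5 overlaps Iapp on the opposite strand, and the exons of the genes do not overlap.

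In comparisons of P2 with single populations the calls split the members. P2 was called higher than P1 for 5 members (13.9% of all genes), than P3 for 6 (10.5%), than P4 for 4 (8.02%) and than P5 for 6 (8.75%). Cck, Sct, Sst and Iapp were called in all 4 comparisons, Ghrl in those with P1, P3 and P5, and Tac1 in those with P3 and P5. Gip, Nts, Pyy and Gcg were called in none of them, although their log2 fold changes, Gcg against the 2 reads of P3 left out, lay between 1.07 and 8.16, each with a standard error of 1.10 to 2.02. The P4 count fell to 1 without P2 replicate 2 or without P4 replicate 2, and to 2 without P4 replicate 1. The P1 count fell to 3 without P1 replicate 2 or P2 replicate 2, and the P5 count to 2 without P5 replicate 1 and to 1 without P5 replicate 2. The calls over all genes also fell in the same refits for P4, P1 and P5, so the losses were not limited to hormones. Calls of members and of all genes did not fall in step in every refit. Why some members lost the call was not tested. In each of these refits the population left with 1 library was assumed to vary like the others.

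**Figure D2:**
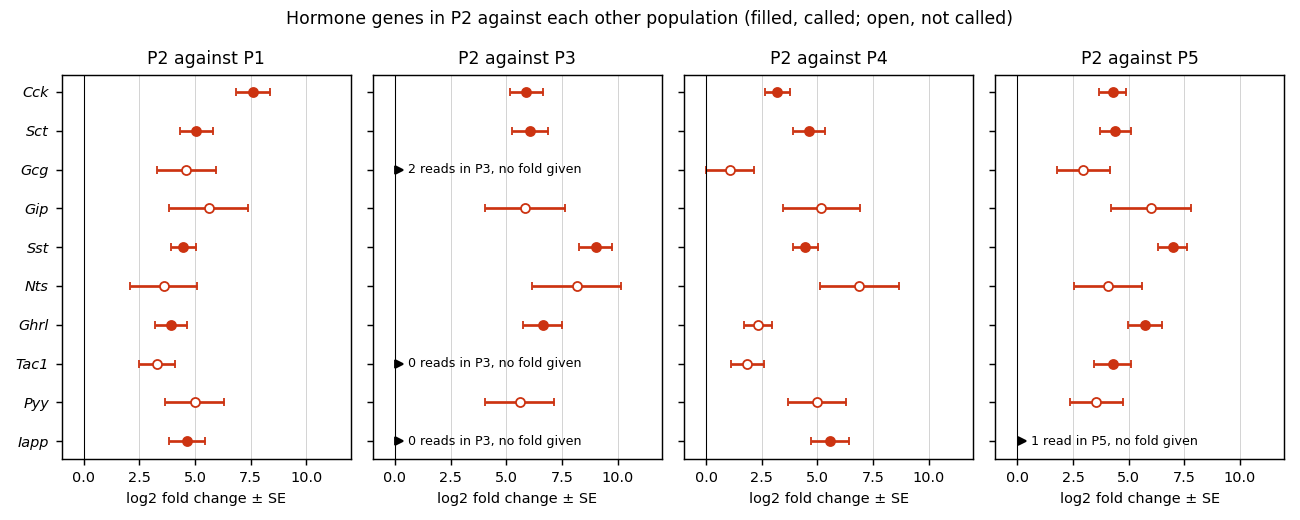
Log2 fold change of each hormone gene in P2 against each other population, with bars of 1 standard error. Filled points were called at an adjusted p under 0.01, open points were not, and no fold is drawn where the other population held 3 or fewer reads. Gcg in P2 against P4, at 1.07, is the smallest of the drawn values.

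Among P1, P3, P4 and P5 few hormone differences were called. Cck was the only member lower in P1 than in P4 (9.44% of all genes), Sst the only one lower in P3 than in P1 (7.59%), and P5 differed from P1 in Cck, which was higher (8.58%), and in Sst, which was lower (11.2%). Each of these calls rested on single libraries. Cck in P1 against P4 was lost without any 1 of the 4 libraries, Sst in P3 against P1 without P1 replicate 1, P1 replicate 2 or P3 replicate 2, and both calls in P5 against P1 without any 1 of the 4 libraries, with 1 of them lost also without either P4 library. Calls over all genes were lost with them, since P1 against P4 went from 3219 genes to 0 without either P4 library, P3 against P1 from 2140 to 0 without P1 replicate 1, and P5 against P1 from 2714 to 0 without P5 replicate 2. No member, and 0% of all genes, was called between P3 and P4, P5 and P4 or P5 and P3 by edgeR. At an unadjusted p under 0.05 the same comparisons held 5, 4 and 3 of the members and 2080, 351 and 1587 genes. DESeq2 called 4 members lower in P3 than in P4 (Cck, Sst, Ghrl and Tac1), where it called 89 of all 13708 genes lower. It called 2 members lower in P5 than in P4 (Sst and Ghrl), out of 3 genes lower in all, and no member among the 43 genes it called between P5 and P3. The share of mitochondrial reads was highest in both P3 libraries. With the mitochondrial genes left out of the edgeR fit, the calls among these 4 populations were the same, namely Cck in P1 against P4, Sst in P3 against P1, Cck and Sst in P5 against P1, and no member in the other comparisons.

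Levels of different hormones can be compared once reads are divided by exon length. In P2 the order per kb was Gip (4403 ± 2322 CPM per kb, SD, n = 2), Sst (2121 ± 1247), Sct (752 ± 615), Nts (518 ± 651), Ghrl (389 ± 150), Cck (272 ± 182), Pyy (92.3 ± 95.4), Gcg (65.8 ± 73.1), Tac1 (58.8 ± 48.2) and Iapp (36.6 ± 9.33). Most neighbours in that order lay within their spread. In P4 the order per kb was Gip (122 ± 108), Sst (97.3 ± 62.4), Ghrl (77.8 ± 27.5), Gcg (31.5 ± 5.98), Sct (30.6 ± 7.35), Cck (29.7 ± 10.7), Tac1 (16.4 ± 5.68), Nts (4.46 ± 3.56), Pyy (2.91 ± 0.50) and Iapp (0.793 ± 0.834). Gip and Sst led both gates, whereas Nts stood above Ghrl in P2 on average and near the foot of the list in P4.

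The make-up of the hormone reads, as shares of reads per kb, differed between gates. Gip held 56.4 and 48.3% in the P2 libraries and Sst 25.3 and 24.0%, so that both made up most of the P2 signal in either replicate. In P4, Gip held 36.8 and 15.9%, Sst 26.3 and 18.4%, and Ghrl 10.8 and 33.7%. Gcg held 6.64 and 9.45% in P4 but 0.287 and 0.938% in P2, and Tac1 held 3.79 and 4.27% in P4 but 0.505 and 0.742% in P2. For both genes the P4 libraries lay above the P2 libraries, the reverse of their CPM means. In P5, Gip held 33.2 and 36.9%, Sct 21.2 and 17.2%, and Nts 10.9 and 18.5%. The 2 P1 libraries did not share a leading hormone. Sst (39.8%) and Nts (31.6%) led in P1 replicate 1, and Gip (54.8%) and Sst (27.1%) in P1 replicate 2, at nearly equal totals of 1255 and 1251 hormone reads. The shares in P3 rest on 249 and 75 reads, of which 198 were Gip in replicate 1. No test was run on single shares.

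**Figure D3:**
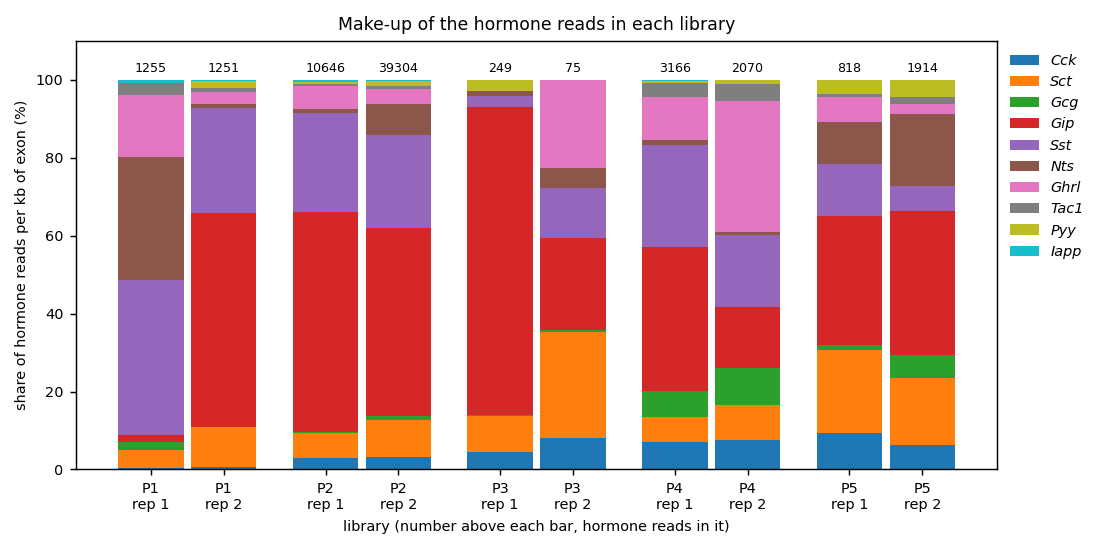
Share of each hormone in the hormone reads per kb of exon, in percent, for each library, with the number of hormone reads above each bar. Gip and Sst make up most of both P2 bars, Gcg, Tac1, Ghrl and Cck are wider in P4 than in P2, and the P1 bars differ.

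The same members were set against Chgb, the granin with the most reads in the enteroendocrine marker list, to give their levels relative to endocrine granule RNA. Per 100 Chgb reads, Gcg had 1.32 and 4.79 reads in P2, 19.0 and 20.8 in P4, and 3.19 and 16.0 in P5. Tac1 had 1.61 and 2.62 in P2, 7.50 and 6.52 in P4, and 1.39 and 3.60 in P5. Ghrl had 9.38 and 7.12 in P2, 10.9 and 26.2 in P4, and 5.26 and 2.33 in P5. Per Chgb read, Gcg, Tac1 and Ghrl were therefore higher in P4 than in P2 in all libraries. Gip ran the other way, with 119 and 113 reads per 100 Chgb reads in P2, 48.5 and 16.1 in P4, and 36.3 and 45.5 in P5. Sst had 46.7 and 49.1 in P2, 30.2 and 16.3 in P4, and 12.6 and 6.91 in P5. The P1 libraries held only 826 and 363 enteroendocrine marker reads. In them Sst had 62.3 and 142 reads per 100 Chgb reads, above both P2 libraries, so Sst did not peak in P2 on this measure. Tac1 had 8.38 and 10.9 in P1, also above P2, and Gip had 3.18 and 328, on either side of P2. Cck lay closer together, with 7.66 and 9.27 in P2, 11.3 and 9.60 in P4, and 12.7 and 9.38 in P5. Its P4 libraries also lay above its P2 libraries.

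Scaling the libraries to the sum of the 10 enteroendocrine markers, a choice made after the data had been seen, moved all genes together, with a median shift of -3.41 on the log2 scale between P2 and P4. The members whose log2 fold change lay below that shift therefore turned sign, and the turn is a property of the scale and not a separate result. These 4 log2 fold changes became -2.86 ± 1.16 for Gcg (adjusted p = 0.0184), -1.88 ± 1.18 for Tac1 (adjusted p = 0.127), -1.30 ± 1.06 for Ghrl (adjusted p = 0.239) and -0.45 ± 1.07 for Cck (adjusted p = 0.698). Nts was the only member past the threshold in P2 against P4 on this scale, higher in P2 by 2.95 ± 1.07 (adjusted p = 0.00898), where 0.445% of all genes were called higher and 65% lower. Its P2 replicates, at 4.31 and 31.4 reads per 100 Chgb reads, differed widely, and P4 had 2.92 and 1.16. Against P1 on this scale, every member but Cck had a negative log2 fold change in P2, with Nts at -1.93 ± 1.02. Against P5, Nts was at -0.67 ± 0.99, so it stood higher in P2 against P4 but not against P1 or P5. No member passed the threshold in P2 against P1 or P5. This scale ignores the error of the marker sum itself.

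**Figure D4:**
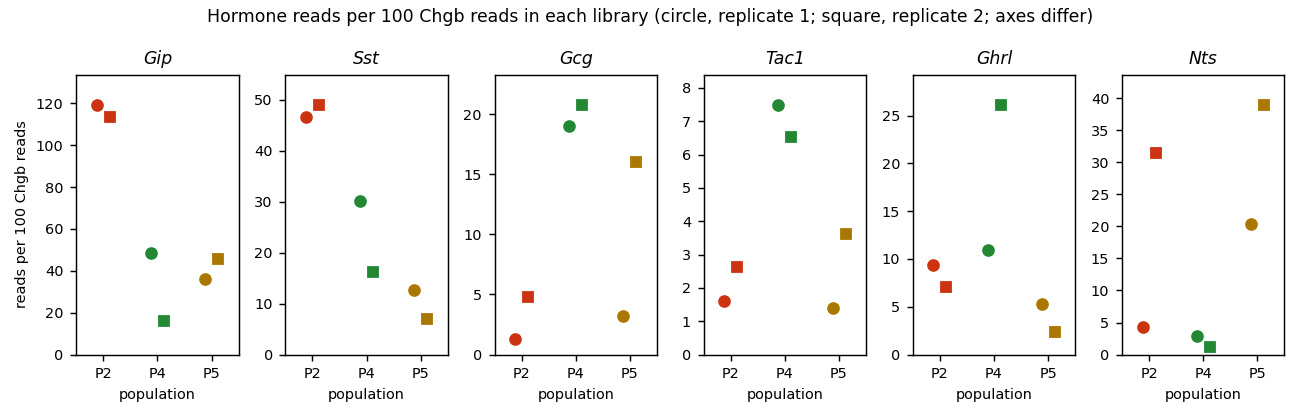
Reads of 6 hormone genes per 100 Chgb reads in each library of P2, P4 and P5, on linear axes that differ between genes. Gcg, Tac1 and Ghrl are higher in both P4 libraries than in both P2 libraries, and Gip and Sst are higher in P2 than in P4 and P5. P1 and P3 are not drawn, and Sst was higher in both P1 libraries than in P2.

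The genes around the hormones were taken from lists of the pathway. In these lists, and those of cell types below, a gene low elsewhere could pass the filter through the P2 libraries alone. The peptide gene Ucn3, at a mean of 19.4 CPM in P2 and 0.589 CPM or less elsewhere, is an example. The counts of tested genes higher in P2 were therefore partly set by the filter. Over all genes, 16.3% were called higher and 10.7% lower in P2 than in the average. Of 23 other gut peptides and granins, 8 were tested and 7 were higher in P2 than in the average of the others. Chgb had 1588 and 3662 CPM in P2 and 3.54 to 281 CPM elsewhere (log2 5.25 ± 0.51, adjusted p = 7.56e-05), and Chga followed with 848 and 2281 CPM in P2 (log2 5.65 ± 0.54, adjusted p = 6.97e-05). Guca2a, which encodes guanylin, was higher by 2.41 ± 0.29 on the log2 scale (adjusted p = 0.000216), whereas its relative Guca2b did not pass (log2 0.73 ± 0.74, adjusted p = 0.465). Insl5, Npy, Vip, Gal, Calca, Adcyap1 and Pdyn had no read in any library, and Ppy had 2 and Gast 1 read in all.

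Genes that process the precursors moved with the hormones. Of 8, 6 were tested and 5 were higher in P2 than in the average of the others. Cpe, a carboxypeptidase that trims the cut peptides, had 128 and 329 CPM in P2 (log2 5.03 ± 0.54, adjusted p = 0.00012). Pcsk1, the convertase of L, K and I cells, had 99.7 and 194 CPM in P2 and 19.2 to 21.2 CPM in P4. It was called against each other gate, including P4 (log2 2.86 ± 0.32, adjusted p = 0.000608). Pam, which amidates peptide ends, rose by 3.03 ± 0.49 on the log2 scale (adjusted p = 0.00108), and Scg5, a chaperone of Pcsk2, by 5.53 ± 0.47 (adjusted p = 3.54e-05). Mboat4, the acyltransferase of ghrelin, was low throughout, at 2.64 CPM or less in the 9 libraries other than P2 replicate 2, which had 3.11 CPM, and was not called (log2 1.41 ± 0.92, adjusted p = 0.254). Pcsk2, the convertase that makes glucagon in the islet, had reads in P2 only, at 0.608 and 1.11 CPM, and was too low to test.

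Of 27 receptor genes for these peptides and their partners, 9 were tested and 7 were higher in P2 than in the average. The highest were Sort1 (log2 1.20 ± 0.20, adjusted p = 0.00124), a sorting receptor that binds neurotensin, and Ramp1 (log2 5.11 ± 0.42, adjusted p = 3.11e-05), a partner of calcitonin-family receptors. The somatostatin receptors Sstr1, Sstr2, Sstr3 and Sstr5 were all called, with Sstr1 at 11.6 and 33.8 CPM in P2 against 0.167 to 2.45 CPM elsewhere. The receptors Cckbr, Glp2r, Ntsr1, Tacr1, Tacr3, Npy5r and Calcr had no read in any library. Of 12 nutrient sensors, 10 were tested, 8 were higher and 1 was lower in P2. Ffar2, a receptor of short-chain fatty acids, had 22.8 and 43.2 CPM in P2 against 0.529 to 4.45 CPM elsewhere (log2 4.22 ± 0.31, adjusted p = 1.87e-05), and Abcc8, the sulfonylurea receptor, was called between P2 and P4 (log2 2.75 ± 0.41, adjusted p = 0.00244). The glucose carrier Slc5a1, which absorptive cells also use, was lower (log2 -3.54 ± 0.84, adjusted p = 0.00834).

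Of 5 brush-border and vessel peptidases that cleave gut peptides, none was higher and 3 were lower in P2 than in the average: Dpp4 (log2 -2.41 ± 0.46, adjusted p = 0.00271), which inactivates GLP-1 and GIP, Enpep (log2 -4.40 ± 0.91, adjusted p = 0.00414) and Mme (log2 -3.95 ± 0.81, adjusted p = 0.00408). Over all genes, 10.7% were called lower in P2 than in the average. Dpp4 had 37.4 and 66.3 CPM in P2 and 155 to 424 CPM elsewhere. Anpep (log2 -1.93 ± 0.72, adjusted p = 0.0555) and Ace (log2 -3.56 ± 1.03, adjusted p = 0.0208) did not pass.

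Of 20 transcription factors of the lineage, 19 were tested, and 15 were higher in P2 than in the average with none lower. Over all genes, 16.3% were called higher and 10.7% lower. Foxa1 had 60.8 and 80.7 CPM in P2 (log2 2.26 ± 0.33, adjusted p = 0.000657). Rfx6 had 30.4 and 76.7 CPM in P2 and 8.11 to 12.4 CPM in P4 (log2 3.92 ± 0.39 against the average, adjusted p = 8.43e-05), and Neurod1 had 20.4 and 59.2 CPM in P2 and 5.44 to 5.88 CPM in P4 (log2 3.79 ± 0.39, adjusted p = 0.000103). Neurog3, the factor that starts the lineage, had another order. It had 14.7 and 11.9 CPM in P4, 3.66 and 3.80 CPM in P5, 0 and 2.43 CPM in P3, 0 and 1.56 CPM in P2, and 0.676 and 0.500 CPM in P1. Neurog3 was lower in P1 than in P4 (log2 -4.45 ± 1.01, adjusted p = 0.00765), and P2 against P4 did not pass (log2 -3.92 ± 1.0, adjusted p = 0.0182). P4 thus had the highest mean Neurog3, and P2 the highest hormones, although P5 against P4 did not pass for Neurog3 either (log2 -1.83 ± 0.82, adjusted p = 1). Sox4 also had its highest mean in P4, with 31.2 and 41.5 CPM there, 26.3 and 38.5 CPM in P5, 14.9 and 18.2 CPM in P2, 2.64 and 14.4 CPM in P3, and 3.89 and 5.84 CPM in P1. P4 and P5 overlapped for Sox4, which was called between P1 and P4 (log2 -2.90 ± 0.56, adjusted p = 0.00386) but not between P2 and P4 (log2 -1.13 ± 0.52, adjusted p = 0.133). Rfx3 was not called against the average (log2 0.93 ± 0.26, adjusted p = 0.0194).

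**Figure D5:**
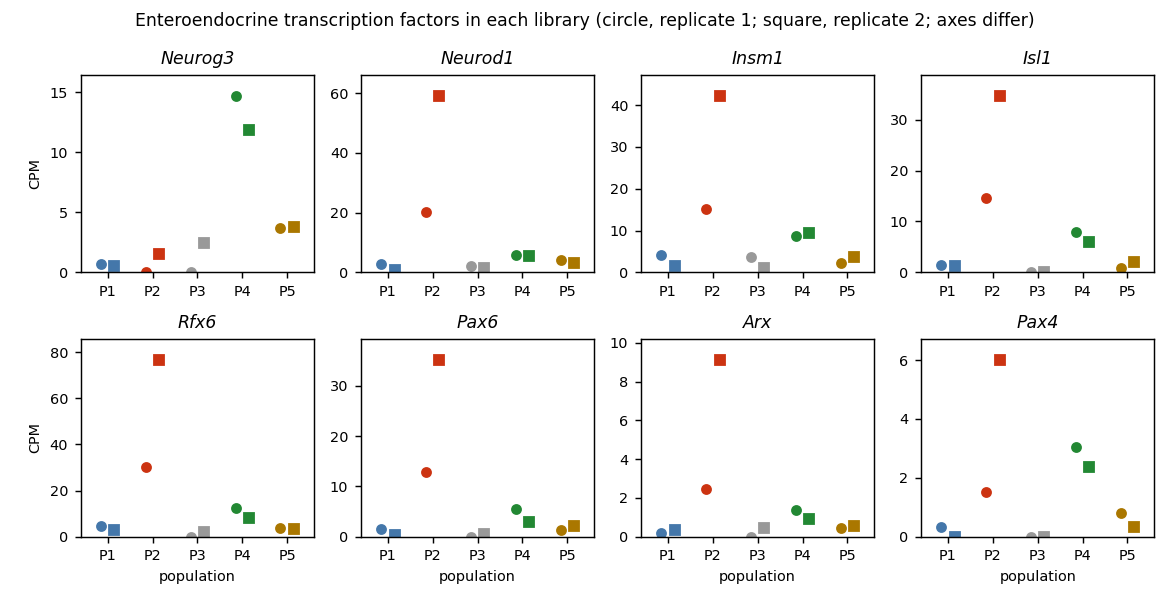
Level of 8 transcription factors of the enteroendocrine lineage in each library, in CPM on linear axes that differ between genes. Neurog3 is highest in both P4 libraries (14.7 and 11.9 CPM), while Neurod1, Insm1, Isl1, Rfx6 and Pax6 are highest in both P2 libraries.

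Enterochromaffin genes were tested beside Tac1. Of 7, 6 were higher in P2 than in the average and none lower. Tph1, the enzyme that starts serotonin synthesis in the gut, had 76.0 and 242 CPM in P2 and 0.664 to 16.9 CPM elsewhere (log2 4.37 ± 0.57, adjusted p = 0.000348). Slc18a1, a vesicle transporter, rose by 4.37 ± 0.27 (adjusted p = 1.07e-05), while Ddc, which many epithelial cells express, was not called (log2 -0.43 ± 0.32, adjusted p = 0.309). Trpa1, an irritant channel, had 94.9 and 173 CPM in P2 and 4.04 CPM or less elsewhere.

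Markers of other secretory cells moved with the hormones in P2. Against the average, 16.3% of all genes were called higher in P2 and 10.7% lower. All 8 Paneth cell genes were higher in P2 than in the average, with sums of 409222 to 568909 CPM in P2 against 504 to 64171 CPM elsewhere. Lyz1 and the Defa genes took 33.3 and 25.1% of P2 reads and 0.0561 to 5.07% of the others. Of 8 goblet genes 7 were higher, led by Fcgbp and Zg16, with summed levels of 55926 to 125029 CPM in P2 against 1983 to 10443 CPM elsewhere. All 7 tested tuft genes were higher, with Trpm5 the highest, and with sums of 786 to 1395 CPM in P2 against 28.6 to 261 CPM elsewhere. Leaving Lyz1 and the Defa genes out of the fit kept all 10 hormone calls against the average. Enterocyte genes, led by Fabp2 and Sis, ran the other way, with 3 of 8 lower and none higher in P2 than in the average. They summed to 1216 to 4007 CPM in P2, 2636 to 7578 in P4 and 5305 to 14006 in P5. The sums were 6049 to 19269 CPM in P3 and 31438 to 39432 CPM in P1, so that P2 overlapped P4. The 8 stem cell genes, led by Olfm4 and Slc12a2, summed to 4967 to 7263 CPM in P4, 4357 to 7112 CPM in P5 and 1037 to 1655 CPM in P2. Their sums were 564 to 3088 CPM in P3 and 690 to 956 CPM in P1. The immune genes were highest in P1, at 141 to 338 CPM, led over all libraries by Lyz2 and Ptprc. The part of these other cells in the hormone differences was not tested.

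Markers of cells outside the crypt epithelium that can make the same peptides were also counted. The enteric neuron list summed to 38.0 to 76.7 CPM in P2 and 1.77 to 8.69 CPM elsewhere, led by Ret and Snap25. Of its 12 genes 3 were tested, and these 2 were higher in P2 than in the average, whereas Hand2, Stmn2 and Nos1 had no read in any library. The gastric list summed to 33.4 to 38.3 CPM in P2 and 0.529 to 4.78 CPM elsewhere, led by Gif and Pgc. Of its 8 genes 3 were tested and Gif and Pgc were higher in P2, whereas Gkn1, Tff1 and Muc5ac had no read. Both sums were of the size of Iapp and Tac1 in P2, and their part in the hormone differences was not tested. The islet markers summed to at most 0.608 CPM, led by Mafa and Ppy, with Ins1 and Ins2 at 0. The enteric glia list summed to 220 to 710 CPM, led by Erbb3, which epithelial cells also express, while Sox10 had no read in any library.

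Over the 10 libraries, genes whose log2 CPM followed the summed hormone level closely, among 13698 other genes, included Tead4 (Pearson r 0.982), Scg2 (0.981), Rgs2 (0.973) and Prnp (0.967). Among the members, the highest pair was Sct and Pyy (r 0.962) and the lowest Gip and Nts (r 0.552). These values are descriptions over 10 libraries that share their gates, and the gap between P2 and the rest enters every one of them.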

How the data were processed

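Poly-A RNA of 10000 sorted cells per sample was sequenced (TruSeq, unstranded). The authors deposited raw counts of reads per gene, made with TopHat 2.1.0 on mm9 and HTSeq-count 0.11.2 on exons, without strand and without multi-mapped reads. The annotation release was not given in the sources used here. The row without a gene name held at most 0.00039% of the counts. Reads that HTSeq-count did not assign to a gene made up 18.7 to 44.3% of the counts. That share was 44.3 and 38.5% in P3, 36.3 and 34.4% in P2, and 18.7 and 20.5% in P1. Both kinds of row were left out, as were 183 rRNA names. Groups and replicate numbers were taken from the labels. The study calls the 2 libraries of a population biological replicates, and neither the labels nor the methods tie a replicate number to a mouse or day.

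The 5 means were fitted over all 10 libraries with edgeR 4.0.16 (R 4.3.3), with TMM scaling, filterByExpr and the quasi-likelihood test, at 5 residual degrees of freedom and an adjusted p under 0.01. Standard errors came from the F statistic. DESeq2 1.42.0, other scalings and filters, the replicate block and single libraries left out were alternatives. The procedure was tested on simulated data. Positions and exon lengths came from GENCODE on NCBIM37, and promoters from RefSeq. Of the row names, 33643 were found in that annotation, and Ffar4 and Npy4r were matched under the older names O3far1 and Ppyr1. A count of 0 allows up to 3 reads, or 0.463 to 0.778 CPM on library totals.

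Members, lists and comparisons were chosen with earlier results of these data known. All 10 members are described, as are up to 4 genes per pathway list with the highest mean CPM and list genes called in a comparison under discussion, and others are given as counts. Mboat4, Pcsk2 and genes with few or 0 reads were named outside that rule, after their values were seen. For other cell types the summed level and the leading 2 genes are given. Some items these rules select are not reported here. Python 3.11.15, pandas 2.3.3 and matplotlib 3.10.9 served for joins and plots.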

Additional observations from a re-analysis of the deposited data

How the results depend on the processing

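All 10 hormones kept their direction in P2 against the average of the other populations under every alternative counted for that comparison. Of the 200 gene values there 191 stayed on their side of the threshold and 9 lost the call. Scaling to enteroendocrine markers was not in that count. On that scale Gcg in P2 was negative against each of P1 (log2 -0.88), P4 (-2.86) and P5 (-1.58), and other members turned sign in some of these comparisons. Leaving out 1 library at a time gave between 5 and 10 called hormones in that comparison, with the 5 without P2 replicate 2, and between 5 and 9 for any difference among the 5 populations, again with the 5 without P2 replicate 2. The ranges were 3 to 7 for P2 against P1, 5 to 8 for P2 against P3, 1 to 5 for P2 against P4, 1 to 6 for P2 against P5, 0 to 1 for P1 against P4, 0 to 1 for P3 against P1 and 0 to 2 for P5 against P1, and 0 throughout for P3 against P4, P5 against P4 and P5 against P3. Over all genes the percent called moved as widely, from 11.8 to 30.7% for P2 against the average, 2.21 to 19.1% for P2 against P4 and 0 to 30.4% for P1 against P4. A lone library was assumed to vary like the other groups.

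Without the filter on low counts the calls rose to 10 for P2 against P1, P3 and P5 (25, 20.2 and 16.9% of all genes) and to 9 for P2 against P4 (15.9%). They rose to 6 for P3 against P4, P3 against P1 and P5 against P3 (2.46, 18.2 and 1.38%). They rose to 5 for P1 against P4, P5 against P4 and P5 against P1 (22.8, 0.886 and 21%). All genes called went from 3985 of 13708 to 5508 of 21998 for P2 against P1. They went from 0 to 541, 195 and 303 for P3 against P4, P5 against P4 and P5 against P3. DESeq2 called 8 for P2 against P1, 4 for P3 against P4, 2 for P5 against P4 and 3 for P3 against P1, where it called 37.5, 0.897, 0.219 and 26.1% of all genes. At an adjusted p under 0.05 the counts were 9, 10 and 7 for P2 against P1, P3 and P4 and 3 for P3 against P1, with 47.2, 37.3, 29.1 and 34% of all genes. Fitting the 4 libraries of a pair alone gave 7 for P2 against P4 and 0 for P3 against P1, with 20.9% and 0% of all genes. The cause was not tested.

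Library totals in place of TMM gave 1 call each for P3 against P4 and P5 against P1, where 0.168 and 9.4% of all genes were called. They shifted the median of all genes by -1.07 (log2) between P2 and P4 and by -0.66 between P2 and the average, and changed the split of the latter comparison from 2240 higher and 1467 lower genes to 1092 and 2441. Between P2 and P4, Gcg reversed to -0.054 on library totals, and without P2 replicate 2 or P2 replicate 1 it was -1.19 or 1.87. Scaling to enteroendocrine markers, which shifted all genes by a median of -3.41 and left 65% of them called lower, put Gcg (-2.86), Tac1 (-1.88), Ghrl (-1.30) and Cck (-0.45) below 0. No source ties samples of the same replicate number to one mouse or day. Their deviations from the group means correlated between -0.06 and 0.55 (median 0.26), over 0.1 in 9 of 10 pairs of populations. The replicate block gave 10 calls for P2 against the average (29.7% of all genes) and 7 for any difference (41.7%). It gave 6, 6, 5 and 6 for P2 against P1, P3, P4 and P5 (33, 23.6, 17.4 and 19%), and the same counts of members as without it elsewhere. Under the block Nts was no longer called for any difference, and Pyy was called in addition against P1 and P4, where all genes called rose from 3985 to 4519 and from 1963 to 2391.

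Depth limits the low members most. P3 held 249 and 75 hormone reads, so that its hormone shares are imprecise and absence of Tac1 and Iapp there is a limit of detection. With 2 libraries per gate, single members differed by up to 37.5-fold between replicates.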
